A study of Mus musculus with 108 samples.

Results

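The genes described here are markers by which inhibitory interneurons are told apart: the peptides somatostatin (Sst), neuropeptide Y (Npy), vasoactive intestinal peptide (Vip) and cholecystokinin (Cck), the calcium-binding proteins parvalbumin (Pvalb), calbindin (Calb1) and calretinin (Calb2), the secreted glycoprotein reelin (Reln), and the transcription factors Lhx6 and Dlx1. They were chosen by name, as the rows whose Ensembl identifiers carry these symbols, and all 10 were found among the 53465 genes measured by RNA sequencing of 3 brain regions, the cortex (CX), the hippocampus (HIP) and the cerebellum (CB). In WT cortex and hippocampus the mean levels of the 4 peptides, Pvalb and Calb1 were higher in the adult than before birth, whereas those of Reln, Lhx6 and Dlx1 were lower. The cerebellum had another course: Sst was highest before birth, Pvalb, Calb1 and Calb2 were highest in the adult, and Vip, Lhx6 and Dlx1 stayed under 1 CPM (counts scaled by library size) at every age. In the main fit no difference between the genotypes passed the test for any member at any age or in any region. The mutated gene, Cul3, was the only gene called there. In 1 alternative fit Calb2 passed in adult hippocampus.

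The mice were wild type (WT) or heterozygous for Cul3 (HET, Cul3+/-), on the strain labelled C56Bl/6N, which the study's methods write as C57BL/6N, and were taken as embryos (E17.5, the embryonic day), at postnatal day 7 (P7) or as adults labelled P35. Cul3 encodes the scaffold of a family of ubiquitin ligases. The mutant allele carries a 1-bp insertion in exon 6 made by CRISPR/Cas9 and was bred from 1 founder, so the mutants stand for 1 line. Each mouse gave 1 library of each region, and no sex was given in the labels. Mice P35_22 and P35_23 were left out because the labels and the study's quality table give them opposite genotypes, which left 51 WT and 51 HET libraries from 34 mice: 6 WT and 6 HET mice at E17.5 and at P7, and 5 of each at P35.

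Interneurons release GABA, and their subtypes differ in the peptide they release and in the protein that buffers calcium in their cytoplasm. Cells born in the medial ganglionic eminence depend on Lhx6 and later make parvalbumin or somatostatin, cells born in the caudal ganglionic eminence include those that make vasoactive intestinal peptide, and Dlx1 acts in precursors of both. None of the markers belongs to interneurons alone. Cajal-Retzius cells of the embryonic forebrain make reelin and calretinin, cerebellar granule cells make reelin and calretinin, unipolar brush cells make calretinin, Purkinje cells make calbindin and parvalbumin, many excitatory neurons make cholecystokinin, and granule cells of the dentate gyrus make calbindin. In these bulk samples fewer cells of a type and less RNA per cell cannot be told apart.

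The promoters of the 4 peptide genes are shown because transcription of these genes is known to respond to cyclic AMP and neuronal activity, and because their levels took different courses over age and region. The sequences are from RefSeq (GRCm38.p6) and run from 250 bases before to 50 bases after the transcript start on the gene's own strand. Capitals mark the cyclic AMP response element TGACGTCA, its shorter form TGACG, or the shorter form on the opposite strand, CGTCA.
Sst, chr16:23890795-23891094, minus strand: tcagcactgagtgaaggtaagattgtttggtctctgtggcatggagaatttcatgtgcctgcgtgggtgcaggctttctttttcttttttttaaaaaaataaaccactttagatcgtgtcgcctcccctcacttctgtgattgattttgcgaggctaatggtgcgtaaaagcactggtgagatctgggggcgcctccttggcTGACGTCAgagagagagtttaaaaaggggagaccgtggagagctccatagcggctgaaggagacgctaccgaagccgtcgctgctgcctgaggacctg
Vip, chr10:5638968-5639267, plus strand: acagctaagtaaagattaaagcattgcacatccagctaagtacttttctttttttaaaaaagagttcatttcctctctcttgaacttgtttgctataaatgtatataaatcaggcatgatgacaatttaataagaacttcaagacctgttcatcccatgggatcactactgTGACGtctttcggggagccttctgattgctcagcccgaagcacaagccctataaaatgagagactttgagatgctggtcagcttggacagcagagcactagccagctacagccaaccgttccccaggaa
Cck, chr9:121495645-121495944, minus strand: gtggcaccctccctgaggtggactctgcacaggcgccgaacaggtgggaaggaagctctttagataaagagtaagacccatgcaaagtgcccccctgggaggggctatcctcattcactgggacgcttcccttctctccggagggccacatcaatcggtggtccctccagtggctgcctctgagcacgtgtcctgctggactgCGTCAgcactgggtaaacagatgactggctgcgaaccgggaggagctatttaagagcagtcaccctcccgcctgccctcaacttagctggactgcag
Npy, chr6:49822460-49822759, plus strand: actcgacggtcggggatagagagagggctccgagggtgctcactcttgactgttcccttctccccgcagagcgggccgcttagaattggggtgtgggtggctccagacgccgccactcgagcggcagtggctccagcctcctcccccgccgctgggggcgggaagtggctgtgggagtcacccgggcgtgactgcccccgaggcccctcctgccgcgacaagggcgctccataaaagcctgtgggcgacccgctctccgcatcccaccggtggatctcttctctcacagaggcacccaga
The full element stood 48 bases before the Sst start and was in no other member's promoter, while 588 of 32851 RefSeq promoters of this length (1.79%) held it. The shorter form stood 79 bases before the Vip start and, on the opposite strand, 47 bases before the Cck start, and 20.8% of all promoters held it. The Npy window held neither form. Both strands were searched, and the shorter form found in the Sst promoter lies inside the full element. Of the 10 members, 8 had promoter entries, and those of Pvalb, Reln, Lhx6 and Dlx1 held neither form. The letters TATAAA, the core of the TATA box, were in the Vip and Lhx6 promoters and in 13.6% of all promoters.

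The libraries held between 15126114 and 44411282 expected counts. Cul3, the targeted gene, was lower in HET than in WT in each combination of age and region, for example 115 against 198 CPM on average in E17.5 cortex and 98.9 against 197 CPM in P35 hippocampus. Marker genes separated the labelled regions: the mean log2 CPM of 5 cerebellum markers was 5.50 to 6.48 in WT cerebellum and below 0 in WT cortex and hippocampus. Several libraries stood apart on markers of neighbouring tissue. The mean log2 CPM of 6 choroid plexus genes ranged from -0.21 to 6.29 in E17.5 WT hippocampus, from -1.73 to 4.99 in P35 WT hippocampus and from 0.50 to 5.75 in P35 WT cerebellum. The score of 7 striatum genes was highest in WT replicate 2 among the P7 cortices (4.30) and in HET replicate 1 among the E17.5 cortices (3.71). At E17.5 the mice whose names carry the prefix S3 differed from the others in both genotypes, and counts of calls without them are given with the values by prefix.

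Sst, on chromosome 16 (23889573-23890958, GRCm38), encodes a peptide that inhibits hormone and transmitter release. In WT cortex its level was 6.91 to 14.1 CPM (median 10.3) at E17.5 and 49.4 to 90 CPM (median 69.4) at P7, over 6 libraries each. At P35 the 5 WT cortices had 91.6, 117, 101.8, 109 and 110.0 CPM, so that the lowest adult library was above the highest P7 library. Hippocampal Sst went from 1.72 to 11.2 CPM (median 5.13) at E17.5 to 65.3 to 90.1 CPM (median 73.2) at P7, and was 77.8, 95.9, 84.8, 89.8 and 87.5 CPM at P35. By log2 fold change, tested with edgeR (quasi-likelihood F test, p adjusted by Benjamini-Hochberg) here and below, Sst rose from E17.5 to P7 by 2.73 (SE 0.167, adjusted p = 6.01e-11) in cortex and by 3.64 (SE 0.256, adjusted p = 8.62e-10) in hippocampus. From P7 to P35 it rose again in cortex, by 0.64 (SE 0.160, adjusted p = 0.00196), while the change in hippocampus was within the spread of its libraries, at 0.25 (SE 0.233, adjusted p = 0.371). The cerebellum ran the opposite way: Sst was 24.6 to 32.8 CPM (median 30.4) at E17.5, 1.97 to 6.00 CPM (median 3.26) at P7 and 0.783, 1.22, 1.10, 0.764 and 1.44 CPM at P35. The ages did not overlap, and Sst fell by 3.11 (SE 0.219, adjusted p = 7.45e-10) and then by 1.69 (SE 0.268, adjusted p = 1.38e-05). Hindbrain genes, from the tissue beside the dissected cerebellum, had a mean log2 CPM of -0.69 to 1.62 at E17.5, -2.46 to 0.49 at P7 and -1.87 to -1.18 at P35 in WT cerebellum over 6 genes, with summed levels of 8.16 to 30.3, 8.23 to 24 and 16.6 to 39.5 CPM. Their part in the fall of Sst was not tested.

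Npy, on chromosome 6 (49822710-49829507), encodes a peptide of somatostatin cells and of neurogliaform cells. Its level in WT cortex was 8.42 to 43.9 CPM (median 16.9) at E17.5 and 16.6 to 26.1 CPM (median 22.3) at P7, where the P7 range lay inside the wider E17.5 range and the change was -0.04 (SE 0.306, adjusted p = 0.907). The adult cortices, at 46.5, 53.4, 40.2, 48.6 and 47 CPM, were all above the P7 libraries, and Npy rose by 1.13 (SE 0.318, adjusted p = 0.00484). In hippocampus the rise came earlier, from 1.24 to 9.37 CPM (median 5.54) to 22.6 to 27.4 CPM (median 24.5), by 2.27 (SE 0.273, adjusted p = 6.91e-07). The adult hippocampi, at 24.6, 30.7, 23.3, 26.9 and 27 CPM, overlapped those at P7 and differed by 0.12 (SE 0.264, adjusted p = 0.735). In cerebellum Npy was lowest at P7, where it was 0.251 to 0.762 CPM (median 0.665), against 1.28 to 3.02 CPM (median 1.70) at E17.5 and 8.97, 9.11, 6.68, 8.57 and 10.1 CPM at P35. It fell by 1.75 (SE 0.253, adjusted p = 7.95e-06) and then rose by 3.90 (SE 0.254, adjusted p = 6.49e-11).

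Vip, on chromosome 10 (5639218-5647617), encodes a peptide of interneurons that mainly contact other interneurons. It was close to 0 before birth: the 6 WT cortices held 18 counts in all (0 to 0.356 CPM) and the 6 WT hippocampi 5 counts (0 to 0.0709 CPM). At P7 its level was 7.83 to 12.9 CPM (median 10.6) in cortex and 3.79 to 6.28 CPM (median 4.61) in hippocampus. From the summed counts, the P7 level was 106 times that at E17.5 in cortex (95% interval 66.8 to 179) and 152 times in hippocampus (64.8 to 469). These intervals and those of other low counts cover counting error only. The adult values of 52.8, 53.3, 41.5, 56.7 and 48.9 CPM in cortex and 12.7, 19, 12.5, 16.2 and 14.5 CPM in hippocampus were above every P7 library of the same region, and Vip rose by 2.30 (SE 0.213, adjusted p = 3.26e-08) and 1.67 (SE 0.169, adjusted p = 1.57e-07). In cerebellum no WT library was above 0.470 CPM, and the gene was too low for a test of age. At P35 the cortical level was 2091 times the cerebellar one, with an interval of 816 to 7676, since the 5 cerebella held 4 counts.

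Cck, on chromosome 9 (121489824-121495694), encodes a peptide of basket interneurons and of many excitatory neurons. Cortical Cck was 4.60 to 19.5 CPM (median 11.6) at E17.5 and 52.3 to 80.3 CPM (median 67.8) at P7, and the adult cortices had 172, 273, 236, 246 and 248 CPM. The ages did not overlap, and Cck rose by 2.47 (SE 0.262, adjusted p = 9.36e-08) and then by 1.84 (SE 0.257, adjusted p = 6.01e-06). Hippocampal Cck was 7.76 to 52.1 CPM (median 19.2) at E17.5 and 110.0 to 158 CPM (median 139) at P7, a rise of 2.62 (SE 0.311, adjusted p = 6.16e-07). Of the adult hippocampi, at 187, 191, 213, 193 and 157 CPM, the last was within the P7 range, and the change was 0.50 (SE 0.303, adjusted p = 0.173). In cerebellum Cck, like Npy, was lowest at P7: 5.60 to 9.56 CPM (median 7.35) at E17.5, 2.70 to 4.27 CPM (median 4.07) at P7 and 23.1, 28.4, 18.3, 27.1 and 23.4 CPM at P35. It fell by 0.98 (SE 0.149, adjusted p = 1.43e-05) and then rose by 2.69 (SE 0.155, adjusted p = 1.01e-11).

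**Figure D1:**
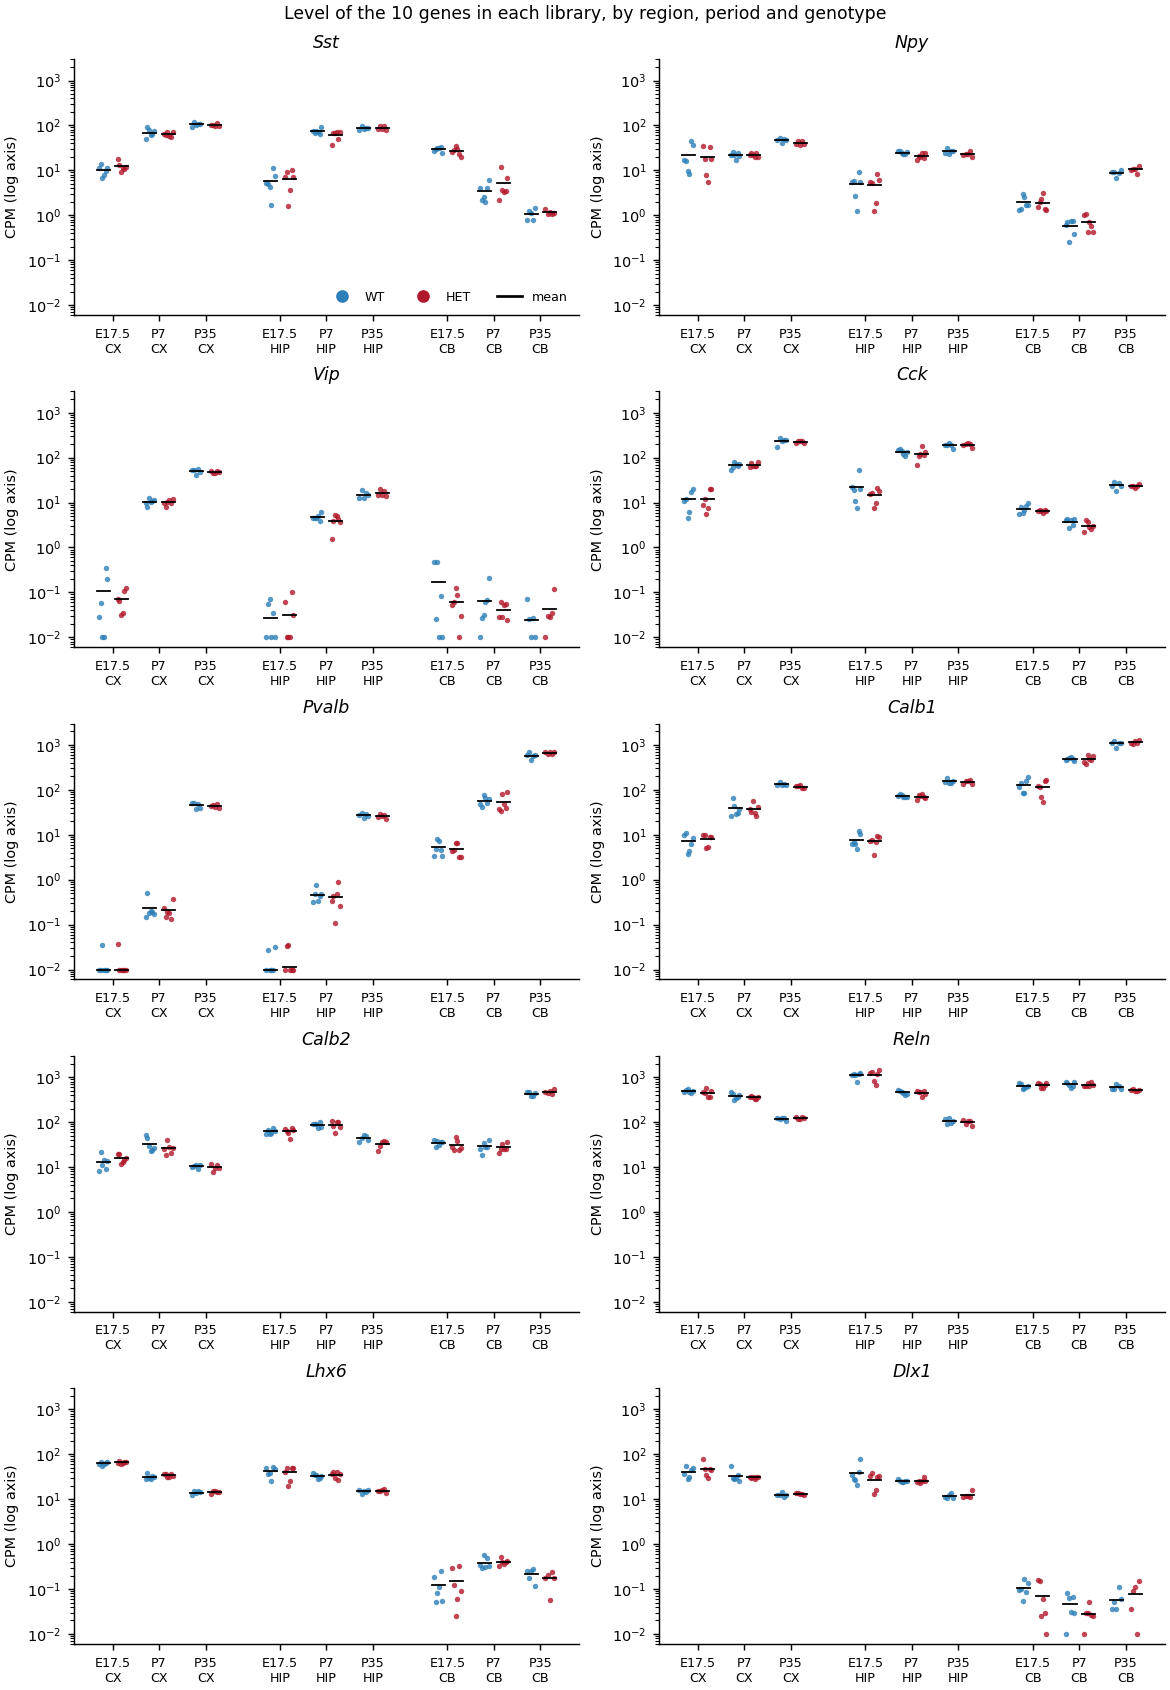
Level of the 10 members in each of the 51 WT and 51 HET libraries, in CPM on a log axis, by age and region; points are libraries of WT and HET mice, black bars are group means, and values at or under 0.01 CPM are drawn at 0.01. Sst falls with age in cerebellum and not in cortex or hippocampus, and Pvalb in WT cortex goes from at most 0.0351 CPM at E17.5 to 37.5 to 51.3 CPM at P35.

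Pvalb, on chromosome 15 (78191114-78206400), encodes a slow-onset calcium buffer of basket cells and of Purkinje cells. In the forebrain it came late. The 6 WT cortices held 1 count of Pvalb in all at E17.5 and 49 at P7, a ratio of levels of 41.6 (95% counting interval 7.13 to 1677). The 6 WT hippocampi held 2 and 98, a ratio of 36.2 (9.75 to 303). At P7 Pvalb was still 0.145 to 0.510 CPM in cortex and 0.312 to 0.753 CPM in hippocampus, whereas the adult cortices had 49.8, 51.3, 37.5, 48.9 and 40.4 CPM and the adult hippocampi 27.1, 30.8, 24.1, 28.8 and 26.9 CPM. It rose after P7 by 7.63 (SE 0.220, adjusted p = 7.04e-15) in cortex and by 5.91 (SE 0.185, adjusted p = 7.21e-14) in hippocampus. The cerebellum was above both at every age, with 3.42 to 7.96 CPM (median 4.78) at E17.5, 40.7 to 75.9 CPM (median 56.9) at P7 and 612, 689, 459, 561 and 586 CPM at P35. Its rises were 3.43 (SE 0.212, adjusted p = 1.39e-10) and 3.34 (SE 0.206, adjusted p = 2.88e-11). The mean log2 CPM of 6 Purkinje cell genes in WT cerebellum was 4.75 to 5.11 at E17.5, 6.16 to 6.54 at P7 and 8.13 to 8.35 at P35, with summed levels of 382 to 708, 1334 to 1591 and 6881 to 8457 CPM, and their part in the rise of Pvalb was not tested.

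Calb1, on chromosome 4 (15881264-15908064), encodes calbindin, a fast calcium buffer. WT cortex had 3.69 to 10.7 CPM (median 7.44) at E17.5, 26.5 to 66.5 CPM (median 33.6) at P7 and 131, 149, 127, 139 and 130.1 CPM at P35. WT hippocampus had 4.80 to 12.2 CPM (median 6.60), 69.1 to 79.2 CPM (median 72.3) and 149, 188, 145, 140.4 and 156 CPM. In neither region did the ages overlap. Calb1 rose by 2.37 (SE 0.256, adjusted p = 1.12e-07) and 1.82 (SE 0.249, adjusted p = 4.46e-06) in cortex, and by 3.20 (SE 0.171, adjusted p = 3.21e-11) and 1.11 (SE 0.160, adjusted p = 1.15e-05) in hippocampus. In cerebellum it was already 83.6 to 198 CPM (median 129) at E17.5, and it rose to 440.2 to 533 CPM (median 487) at P7, by 1.90 (SE 0.170, adjusted p = 1.85e-08), and to 1111, 1247, 842, 1101 and 1099.8 CPM at P35, by 1.16 (SE 0.173, adjusted p = 6.75e-06). In the adult cerebellum WT replicate 3 was lowest for both Calb1 and Pvalb.

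Calb2, on chromosome 8 (110137502-110168210), encodes calretinin, and in the forebrain its course turned at P7. WT cortex had 8.06 to 21.4 CPM (median 12.2) at E17.5, 22.4 to 52.6 CPM (median 28.1) at P7 and 9.92, 10.7, 11.1, 9.02 and 11.3 CPM at P35. Hippocampus was higher at each age, with 53.9 to 74.9 CPM (median 60.4), 75.6 to 103 CPM (median 89.8) and 36.9, 45, 52.2, 48 and 39.8 CPM. Calb2 rose to P7 by 1.32 (SE 0.237, adjusted p = 5.83e-05) in cortex and by 0.49 (SE 0.0997, adjusted p = 2.43e-04) in hippocampus, and after P7 it fell by 1.64 (SE 0.255, adjusted p = 1.95e-05) and 0.97 (SE 0.106, adjusted p = 4.37e-07). In cerebellum it was 27.6 to 39.3 CPM (median 35.9) at E17.5 and 18.2 to 40.9 CPM (median 28.1) at P7, a change of -0.27 (SE 0.145, adjusted p = 0.113), and then rose by 3.89 (SE 0.162, adjusted p = 9.07e-14) to 479, 462, 378, 380.3 and 439 CPM. The mean log2 CPM of 4 unipolar brush cell genes in WT cerebellum was 4.63 to 5.59, 4.06 to 4.68 and 4.70 to 5.57 at the successive ages, and that of 6 granule cell genes 5.00 to 5.81, 7.82 to 8.14 and 8.53 to 8.59. Their part in the rise of Calb2 was not tested.

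Reln, on chromosome 5 (21884454-22344702), encodes the matrix glycoprotein that guides the layering of migrating neurons. WT hippocampus had 784 to 1269 CPM (median 1156) at E17.5, 410.1 to 512 CPM (median 454) at P7 and 116, 89.1, 124, 94.8 and 104 CPM at P35, and the ages did not overlap. WT cortex had 452 to 533 CPM (median 475), 309.9 to 478 CPM (median 379.5) and 124, 118, 122, 124 and 106 CPM, and the first 2 ages overlapped. Reln fell by 1.29 (SE 0.107, adjusted p = 6.89e-09) and 2.10 (SE 0.118, adjusted p = 7.13e-11) in hippocampus and by 0.38 (SE 0.0897, adjusted p = 7.59e-04) and 1.67 (SE 0.0981, adjusted p = 6.96e-11) in cortex. In cerebellum its ages overlapped: 558 to 743 CPM (median 618) at E17.5, 567 to 784 CPM (median 707) at P7 and 539, 551, 707, 633 and 543 CPM at P35. The first change there was 0.12 (SE 0.0980, adjusted p = 0.286), and the second, -0.21 (SE 0.103, adjusted p = 0.0669), passed but was lost in 6 of the alternatives. Of 7 Cajal-Retzius genes, none of them a member, 1 rose and 6 fell from E17.5 to P7 in cortex, where 41.3% and 40.6% of all genes did, and 0 rose and 6 fell in hippocampus (38.9% and 39.1%). Their mean log2 CPM in WT cortex went from 2.38 to 3.36 at E17.5 through 0.91 to 1.69 to -0.61 to -0.41 at P35, and their part in the fall of Reln was not tested. The antisense gene Gm10475 shares exonic sequence with Reln, and as the strand setting of the counting is not given in the sources used here, their reads may not be told apart.

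Lhx6, on chromosome 2 (36081953-36105408), a factor of cells from the medial ganglionic eminence, went in WT cortex from 56.2 to 69.1 CPM (median 62.7) at E17.5 to 28.5 to 39.4 CPM (median 30.3) at P7 and 12.4, 15, 13.8, 15.2 and 14.3 CPM at P35, without overlap. It fell by 1.04 (SE 0.0823, adjusted p = 1.85e-09) and 1.13 (SE 0.0889, adjusted p = 3.60e-09). In hippocampus it went from 26.1 to 52.8 CPM (median 42.8) to 28.9 to 37.9 CPM (median 33.6) and 16.2, 13.4, 15.6, 14.3 and 16.2 CPM, where the first 2 ages overlapped, and fell by 0.35 (SE 0.128, adjusted p = 0.0188) and 1.10 (SE 0.138, adjusted p = 2.13e-06). Dlx1, on chromosome 2 (71528113-71533981), a homeodomain factor of interneuron precursors, had 28.4 to 56.4 CPM (median 41.4) at E17.5 and 25.3 to 54.4 CPM (median 29.9) at P7 in WT cortex. That difference, -0.35 (SE 0.182, adjusted p = 0.0831), passed the threshold but was lost in 11 of the alternatives, and without P7 WT replicate 1 it was -0.54. Its level in adult cortex, 12.6, 12.4, 14.6, 11.4 and 12.6 CPM, lay below the P7 range, a fall by 1.37 (SE 0.199, adjusted p = 9.64e-06). In hippocampus Dlx1 went from 20.7 to 80.1 CPM (median 31.9) to 24.5 to 27.6 CPM (median 25.8) and 11.1, 10.4, 12.2, 13.8 and 10.5 CPM, and fell by 0.59 (SE 0.226, adjusted p = 0.0250) and 1.12 (SE 0.246, adjusted p = 7.84e-04). The first of these rested in part on E17.5 WT replicate 6, which had 80.1 CPM, and without it the change was -0.25 (adjusted p = 0.0805). In cerebellum both were at the edge of detection, with at most 0.566 CPM for Lhx6 and 0.169 CPM for Dlx1 in any WT library. Lhx6 there had 84 counts at P7 against 26 at E17.5 over 6 libraries each, a ratio of levels of 3.24 (2.07 to 5.24). From P7 to P35 Lhx6 fell there by 0.85, with 35 counts over the 5 adult libraries, and the call held in every alternative. The antisense gene Dlx1as overlaps exons of Dlx1, and Gm27953 overlaps Lhx6 on its own strand, so part of these counts may belong to them.

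Over all members, 9 of 10 were called between E17.5 and P7 in cortex at an adjusted p of at most 0.1, where 81.9% of all genes tested were called, and 10 of 10 between P7 and P35 (67.7% of all genes). In hippocampus 10 of 10 (78.0%) and 7 of 10 (62.7%) were called, and in cerebellum 6 of 8 (71.2%) and 8 of 8 (79.4%). With most genes called, the counts were no result about the members. By size, 6 members were called and at least 2-fold higher at P7 than at E17.5 in cortex (22.9% of all genes) and 1 at least 2-fold lower (14.5%), and at P35 5 were higher (10.3%) and 4 lower (11.6%) than at P7. In hippocampus 6 were higher (17.8%) and 1 lower (13.1%) by that measure at P7, and 3 higher (7.95%) and 3 lower (10.4%) at P35. In cerebellum 3 were higher (10.0%) and 2 lower (10.1%) at P7, and 5 higher (16.6%) and 1 lower (17.7%) at P35. The median log2 change of the 4 peptides from E17.5 to P7 was 2.60 in cortex and 3.13 in hippocampus, against 0.01 and 0.00 over all genes. From P7 to P35 it was 1.48 and 0.38, against -0.03 and -0.01. The libraries of different ages came from different mice, and p-values measure the spread between mice.

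**Figure D2:**
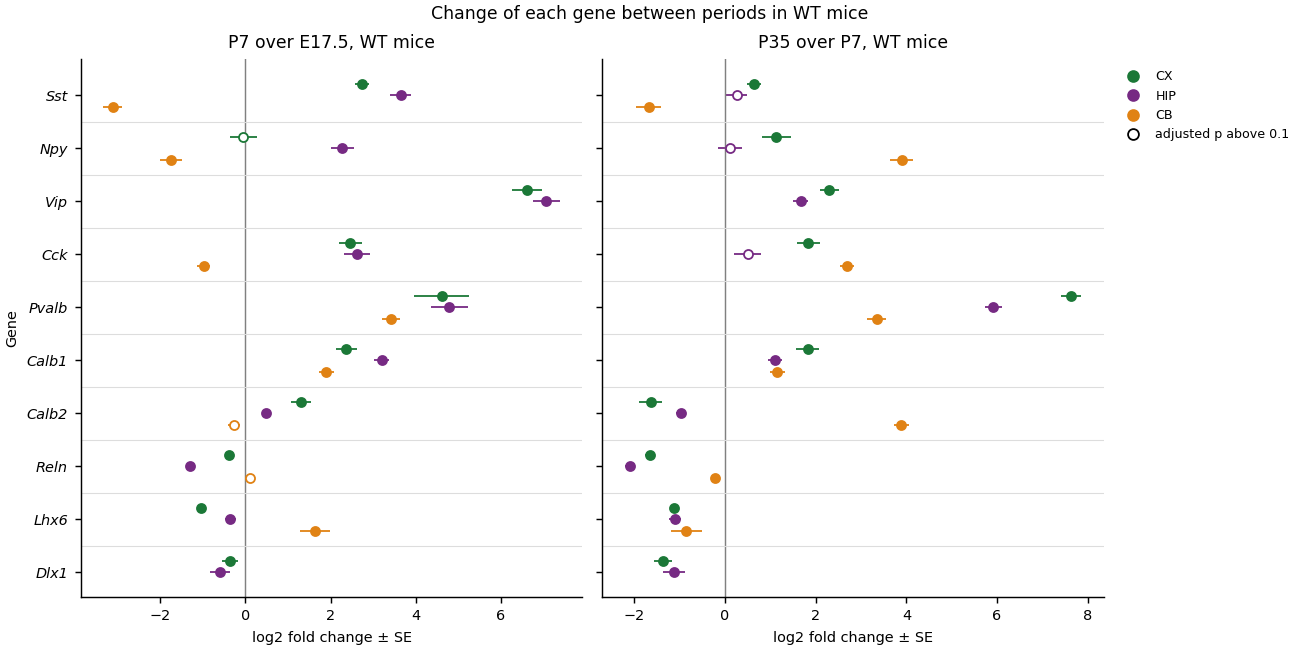
Log2 fold change of each member between successive ages in WT mice, with its standard error, for cortex, hippocampus and cerebellum; open symbols have an adjusted p above 0.1. After P7 Pvalb has the largest rise of the members in cortex (7.63) and in hippocampus (5.91), and in cerebellum Npy (3.90) and Calb2 (3.89) rise most.

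Across regions, each WT mouse gave all 3, and the mouse was a block in the test. Between cortex and hippocampus it called 6 of 9 members at E17.5 (46.5% of all genes), 7 of 10 at P7 (57.0%) and 8 of 10 at P35 (51.5%). Between cortex and cerebellum it called 8 of 9 (61.7%), 9 of 10 (82.9%) and 10 of 10 (75.4%), and between hippocampus and cerebellum 9 of 9 (49.5%), 10 of 10 (78.2%) and 10 of 10 (75.1%). At P35 Vip was higher in cortex than in hippocampus by 1.78 (SE 0.0957, adjusted p = 1.92e-08), Npy by 0.85 (SE 0.0591, adjusted p = 1.85e-07) and Pvalb by 0.74 (SE 0.0556, adjusted p = 3.66e-07), whereas Calb2 was lower, at -2.07 (SE 0.108, adjusted p = 1.47e-08). Lhx6 and Dlx1, the lineage factors, did not pass there, at -0.08 (SE 0.0956, adjusted p = 0.515) and 0.15 (SE 0.0977, adjusted p = 0.234). The smaller differences were less stable. Those of Cck (0.33), Calb1 (-0.18) and Reln (0.19) passed with all mice and were lost without mouse P35_15, which left 5 members called. The first 2 were also lost without mouse P35_31, and that of Reln without mouse P35_26.

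The difference between cortex and hippocampus varied with age for several members. Npy was higher in cortex at E17.5, at 2.03 (SE 0.401, adjusted p = 0.00135), did not differ beyond its spread at P7, at -0.17 (SE 0.0997, adjusted p = 0.180), and was higher in cortex again at P35. Cck was lower in cortex at E17.5, at -0.86 (SE 0.252, adjusted p = 0.0159), and at P7, at -0.99 (SE 0.111, adjusted p = 3.89e-06), and higher at P35, where the call was lost without mouse P35_15 or P35_31. Pvalb was lower in cortex at P7, at -0.96 (SE 0.344, adjusted p = 0.0303), a call lost without mouse P7_C2_10, and higher at P35. Sst had the opposite order between forebrain and cerebellum before and after birth. At E17.5 it was lower in cortex than in cerebellum, at -1.62 (SE 0.260, adjusted p = 1.44e-04), and lower in hippocampus, at -2.46 (SE 0.273, adjusted p = 8.11e-06), while at P35 it was higher by 6.65 (SE 0.104, adjusted p = 5.17e-14) and 6.35 (SE 0.104, adjusted p = 8.07e-14).

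The interaction of age with region, tested over the 51 WT libraries, passed for 9 of 10 members, and for 87.7% of the 20298 genes tested. The members with the largest F statistics were Sst (231, adjusted p = 4.87e-21), Reln (224, adjusted p = 7.72e-21), Calb2 (128, adjusted p = 9.10e-18) and Pvalb (123, adjusted p = 1.65e-17). Dlx1 did not pass (F = 1.35, adjusted p = 0.292).

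Ordered by WT mean over the 9 combinations of age and region, Sst ran from 106 ± 9.66 CPM (SD, n = 5) in adult cortex to 1.06 ± 0.289 CPM (n = 5) in adult cerebellum, and the first 4 places, adult cortex, adult hippocampus, P7 hippocampus and P7 cortex, each overlapped with the next. For Pvalb, adult cerebellum (581 ± 83.6 CPM, n = 5) was clear of all others, while P7 cerebellum (57.8 ± 13.1 CPM, n = 6) overlapped adult cortex (45.6 ± 6.21 CPM, n = 5). For Reln, E17.5 hippocampus (1111 ± 172 CPM, n = 6) came first and only touched the range of P7 cerebellum (695 ± 88 CPM, n = 6), and adult hippocampus (105 ± 14.5 CPM, n = 5) came last and overlapped adult cortex (119 ± 7.40 CPM, n = 5). Lhx6 was led by E17.5 cortex (63 ± 4.55 CPM, n = 6), clear of E17.5 hippocampus (41.9 ± 10 CPM, n = 6), whereas the same datasets overlapped for Dlx1. Levels of different genes were compared per kilobase of exon. The length was that of all annotated exons of a gene together, for example 721 bp for Sst, 3402 bp for Vip and 23738 bp for Reln. The order of genes therefore depends on the annotation. By mean CPM per kb, adult WT cortex held most Cck (180.0), then Sst (147), Npy (83.3), Pvalb (43.8), Calb1 (27.8) and Vip (14.9), and under 10 CPM per kb of the other 4. Adult WT cerebellum held most Pvalb (559), then Calb2 (245), Calb1 (223) and Reln (25).

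Of 12 receptor genes for the 4 peptides, 10 could be tested in cortex. From E17.5 to P7, 9 rose and 1 fell, with log2 changes from Cckbr (5.87) to Sstr2 (-0.40), and from P7 to P35, 4 rose and 2 fell, led by Vipr1 (2.51) and Vipr2 (-1.89). The shares of all genes that rose and fell in cortex were 41.3% and 40.6% by P7, and 33.2% and 34.5% after it. In hippocampus 9 rose and 1 fell of 10 (38.9% and 39.1% of all genes), and then 5 rose and 4 fell (31.3% and 31.5%). In cerebellum 3 rose and 8 fell of 11 (35.7% and 35.5%), and then 2 rose and 7 fell (40.0% and 39.4%), among them the somatostatin receptors Sstr3 (3.17) and Sstr2 (-6.60). Of the reelin receptors Vldlr and Lrp8 and the adaptor Dab1, 1 rose and 2 fell by P7 in cortex, at Vldlr (0.31) and Dab1 (-1.29), and 0 rose and 3 fell by P35, led by Lrp8 (-1.18).

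The GABA genes Gad1, Gad2 and Slc32a1, which make and load the transmitter, were higher after birth. By P7 3 rose and 0 fell in cortex, led by Slc32a1 (1.80), and 3 rose and 0 fell in hippocampus. For these and the lists below, 41.3% of all genes rose and 40.6% fell in cortex by P7, and 33.2% and 34.5% by P35. In hippocampus the shares were 38.9% and 39.1% by P7, and 31.3% and 31.5% by P35. Of 13 other transcription factors of the lineage tested in cortex, 3 rose and 7 fell by P7 and 0 rose and 11 fell by P35, and in hippocampus 1 rose and 8 fell and then 0 rose and 6 fell. Of 13 other peptides and proteins of interneuron subtypes, 9 rose and 4 fell by P7 in cortex, with Lamp5 (6.27) and Htr3a (-1.58) at the ends, and 7 rose and 5 fell by P35, with Igfbp6 (3.92) and Chodl (-2.75). Another list held 11 genes of fast-spiking parvalbumin cells, which cover channels, release proteins and the perineuronal net. Of these 10 rose and 0 fell by P7 in cortex, led by the net component Hapln1 (7.83). Pvalb itself also rose in that step (4.61, from 1 count at E17.5) but was still under 1 CPM. By P35 8 of the listed genes rose and 2 fell, led by another net component, Hapln4 (6.66).

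In the mutants no member was called in any of the 77 tests of genotype that could be made, and 13 of the 90 had too few counts. A single gene was called at each age and region, Cul3 itself, which is 0.00603%, 0.00586% and 0.00568% of the genes tested in E17.5 cortex, hippocampus and cerebellum, 0.00566%, 0.00563% and 0.00570% at P7, and 0.00569%, 0.00584% and 0.00584% at P35. That count depended on the fit. With 3 RUVs factors in an edgeR likelihood ratio test it ran from 1 gene in E17.5 cortex to 188 in P35 hippocampus. The study, with RUVs factors and sex in its model, reported far more genes at the same threshold. In the main fit 6 of the 77 tests of members had an unadjusted p under 0.05 in edgeR, all with lower values in HET. Over all genes this ran from 277 of 16594 in E17.5 cortex to 2459 of 17110 in P35 cerebellum. How many of those genes were lower in HET is not given here, so the shared direction is no result about the members. None of the 6 passed the correction, and in each the genotypes overlapped.

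Npy made 3 of the 6. In P7 hippocampus the WT libraries had 22.6 to 27.4 CPM (median 24.5) and the HET libraries 17.1 to 24.1 CPM (median 20.4), and 4 of the 6 HET libraries were below every WT library (log2 difference -0.26 (SE 0.0844, adjusted p = 0.833)). The lowest HET library, replicate 1 (17.1 CPM), was also the lowest of its group for Sst (37 CPM), Vip (1.53 CPM) and Cck (67.1 CPM). Its choroid plexus genes had a mean log2 CPM of 5.81, against at most 1.71 in the other 11 libraries, and without it the difference was -0.21. In P35 cortex Npy was 46.5, 53.4, 40.2, 48.6 and 47 CPM in WT and 37.7, 44, 37.1, 45.5 and 39.5 CPM in HET, where 3 of 5 HET libraries lay below every WT library (-0.19, SE 0.0709, adjusted p = 0.997). In P35 hippocampus it was 24.6, 30.7, 23.3, 26.9 and 27 CPM in WT and 21.9, 23.4, 23, 26.9 and 19.5 CPM in HET (-0.20, SE 0.0853, adjusted p = 0.796). Adult cerebellum, given for the comparison of regions after its values were seen, had 8.97, 9.11, 6.68, 8.57 and 10.1 CPM in WT and 10.4, 10.7, 10.6, 8.15 and 12.5 CPM in HET (0.25, SE 0.123, adjusted p = 0.358). By the interaction of genotype with region at P35, Npy had an F of 8.52 and an adjusted p of 0.255, where 1 gene in all was called (0.00525%).

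Calb2 in P35 hippocampus had the largest of the 6 differences. The WT libraries had 36.9, 45, 52.2, 48 and 39.8 CPM and the HET libraries 23.1, 29.7, 36.1, 38.3 and 36.5 CPM, and 1 HET library was above the lowest WT library (log2 difference -0.43 (SE 0.120, adjusted p = 0.796)). The WT libraries with the most Calb2, from mice P35_17 and P35_26, were also those with the most choroid plexus signal, at a mean log2 CPM of 4.99 and 4.52 against at most 2.26 in the other 8. Summed over the 6 choroid plexus genes, WT libraries had 2.93 to 2166 CPM and HET libraries 11.3 to 242 CPM. Scores of the 7 Cajal-Retzius genes were highest in the same mice, at 1.65 and 1.67 against at most 1.23. Without both mice, a choice made after the values were seen, the difference was -0.31 (adjusted p = 0.374 in edgeR). With 3 factors of unwanted variation from RUVs in an edgeR likelihood ratio test, it was -0.39 and passed (adjusted p = 0.0243).

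Calb1 in P35 cortex was 131, 149, 127, 139 and 130.1 CPM in WT and 124, 124, 127, 108 and 110.4 CPM in HET (-0.17, SE 0.0569, adjusted p = 0.997). Reln in P35 cerebellum was 539, 551, 707, 633 and 543 CPM in WT and 523, 551, 501, 487 and 519 CPM in HET, where 4 HET libraries were below every WT library (-0.23, SE 0.0799, adjusted p = 0.324). The WT library with 707 CPM, from mouse P35_17, was the lowest of its group for Pvalb (459 CPM) and Calb1 (842 CPM). It also had the highest score of 6 thalamus genes (3.66, the other 9 at most 3.26) and of the Cajal-Retzius genes (4.53, the other 9 at most 4.17), and without it the difference was -0.16. In cerebellum the Cajal-Retzius list does not stand for those cells: at E17.5 it scored 5.29 to 5.67 there and 2.38 to 3.40 in cortex. The part of these markers in the differences was not tested.

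**Figure D3:**
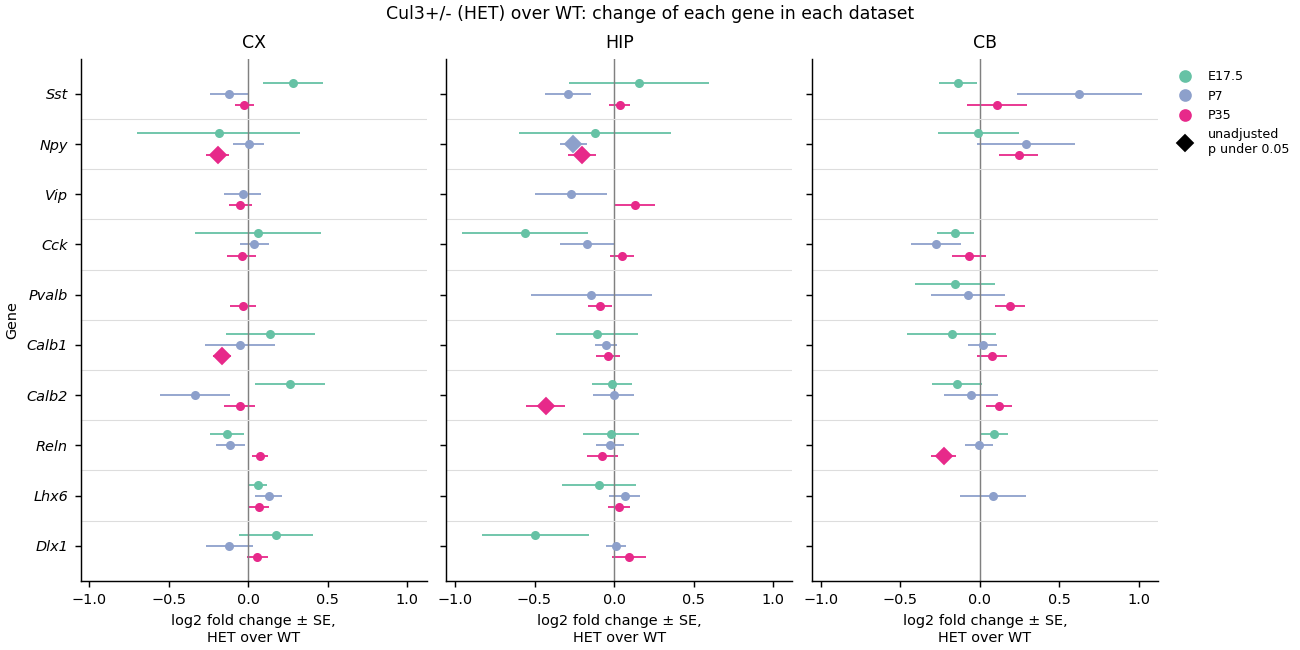
Log2 difference between HET and WT for each member at each age and region, with its standard error; diamonds have an unadjusted p under 0.05. The 6 diamonds lie between -0.43 and -0.17, and no difference passed the correction.

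For Npy and Cck in cortex the errors of the genotype differences were wider at E17.5 than in the adult. In cortex the SE was 0.511 for Npy and 0.397 for Cck at E17.5, and 0.0709 and 0.0905 at P35. The spread relative to the mean was not wider for every member. Lhx6 in WT cortex had 63 ± 4.55 CPM (SD, n = 6) at E17.5 and 14.1 ± 1.12 CPM (n = 5) at P35. The fit held no term for the prefixes of the mouse names described below, so spread between prefixes is part of the E17.5 errors. The interaction of genotype with region called no member at E17.5 (0.00% of all genes), P7 (0.00%) or P35. Before correction in edgeR, Npy, Calb2, Pvalb and Reln at P35 and Dlx1 at E17.5 had a p under 0.05. Over all genes 465 of 18637, 886 of 19381 and 3000 of 19034 did at the successive ages. The interaction of genotype with age called none in cortex (0.00%), hippocampus (0.00%) or cerebellum (0.00%). In edgeR 404 of 19257, 787 of 19245 and 2570 of 19416 genes but no member had an unadjusted p under 0.05. Of the genes in the other lists, none was called for genotype. In E17.5 cortex, where WT and HET mice with the same replicate number deviated together, the fit with the replicate number as a block called 55 genes in place of 1 and no member.

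At E17.5 the levels of several members went with the names of the mice. The names carry the prefixes S2, S3 and S4, with 2 WT and 2 HET mice each, and the labels do not say what a prefix stands for. In a test over the 3 prefixes, chosen after the data were seen, 6 of 8 members were called in E17.5 cortex (42.7% of all genes), 8 of 8 in hippocampus (30.9%) and 5 of 7 in cerebellum (28.2%). Cck in cortex was 4.60 to 7.62 CPM in S3, 8.66 to 12.3 CPM in S2 and 17.3 to 20.2 CPM in S4 (adjusted p = 7.58e-06 in edgeR). Calb1 in cerebellum was 53.7 to 84, 116 to 141 and 157 to 198 CPM in the same order (adjusted p = 4.14e-05). Npy in hippocampus was 1.23 to 2.66, 5.22 to 5.84 and 5.45 to 9.37 CPM (adjusted p = 3.32e-04). In these 3 the S3 mice were lowest. Others had another order. Npy in cerebellum was 2.24 to 3.07 CPM in S3, 1.28 to 1.96 CPM in S2 and 1.33 to 1.72 CPM in S4 (adjusted p = 0.00418), and Pvalb in cerebellum 6.44 to 7.96, 3.44 to 4.89 and 3.21 to 4.68 CPM (adjusted p = 7.71e-04), with S3 highest for both. Reln did not pass in cortex, with means of 482, 472 and 446 CPM (adjusted p = 0.817), and was lowest in S3 in hippocampus, with means of 846, 1198 and 1281 CPM (adjusted p = 0.0153).

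Some of the other marker lists moved with the prefix, and some did not. The mean log2 CPM of the 3 GABA genes in cortex was 3.85 to 4.17 in S3, 4.42 to 4.89 in S2 and 4.26 to 4.54 in S4, and in hippocampus 2.94 to 3.67, 4.17 to 4.59 and 4.64 to 5.69. Cortex markers in cortex were 7.28 to 7.62, 6.84 to 7.21 and 6.96 to 7.08, and granule cell genes in cerebellum 4.87 to 5.17, 5.37 to 5.74 and 5.57 to 5.81. Purkinje cell genes in cerebellum overlapped between the prefixes, at 4.75 to 4.90 in S3, 4.72 to 4.95 in S2 and 4.76 to 5.11 in S4. So did the other transcription factors of the lineage in cortex, at 3.17 to 3.42, 3.19 to 3.75 and 3.27 to 3.41. Their part in the members' differences was not tested. At P7, with the prefixes C1, C2 and C4, no member was called: 0 of 9 in cortex (2.17% of all genes), 0 of 10 in hippocampus (0.00%) and 0 of 8 in cerebellum (0.0742%), where edgeR gave 2752, 1245 and 2307 genes an unadjusted p under 0.05. With the prefix as a block in the test of genotype, no member was called at E17.5 or P7, where 1 gene in all was called in each region. Without the 4 S3 mice, the count of members called rose from 9 to 10 between E17.5 and P7 in cortex, which adds Npy, from 7 to 8 between P7 and P35 in hippocampus, and from 8 to 9 between cortex and cerebellum at E17.5, which adds Cck. In those fits 15079, 12347 and 10567 genes in all were called, against 15249, 11563 and 10975 with the S3 mice. The other 14 counts whose fits held E17.5 libraries did not move.

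**Figure D4:**
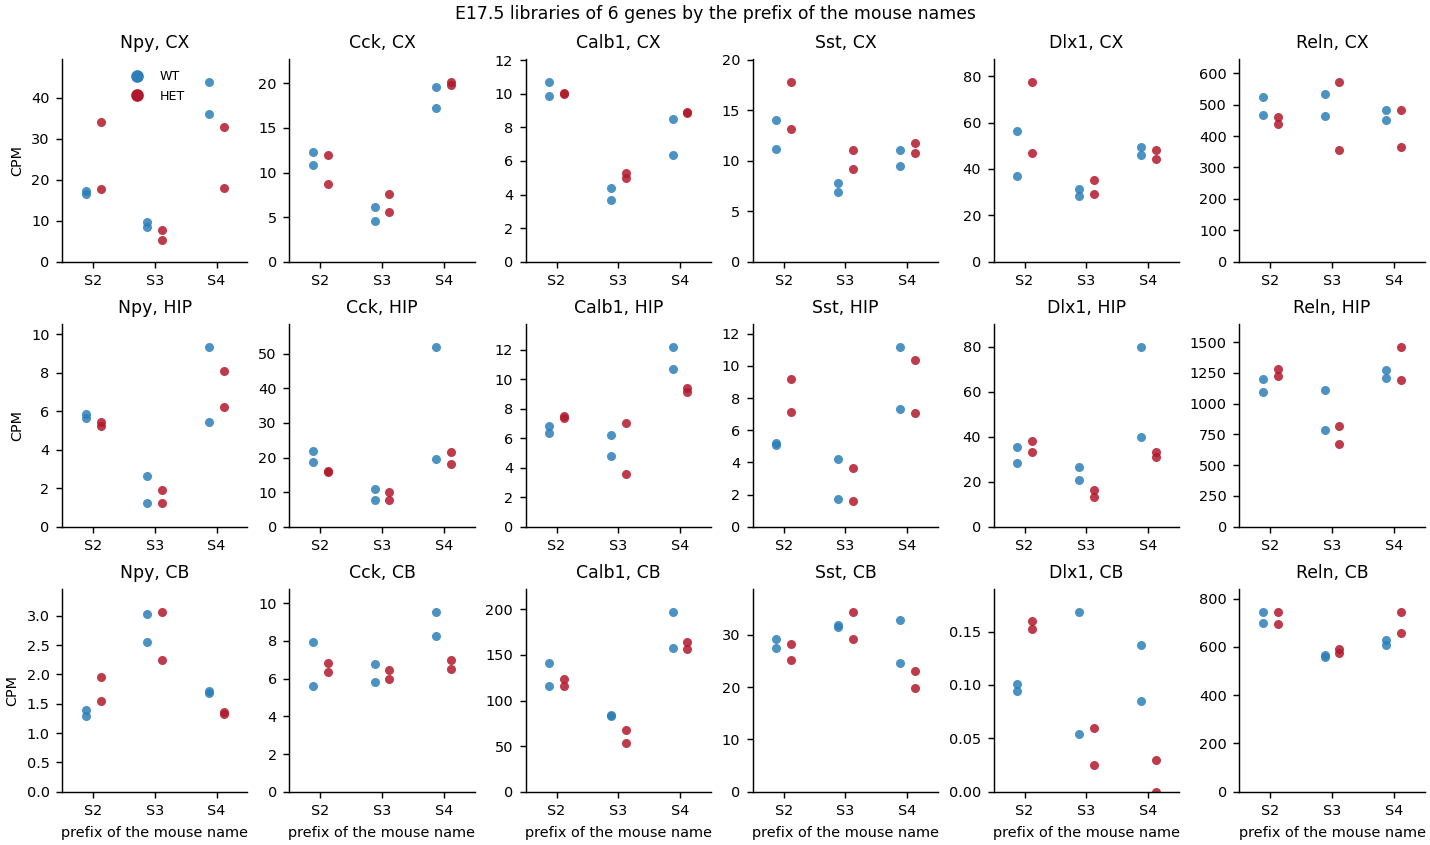
CPM of Npy, Cck, Calb1, Sst, Dlx1 and Reln at E17.5 in cortex, hippocampus and cerebellum by the prefix of the mouse names, 4 libraries a prefix, of which 2 are WT and 2 HET. The S3 libraries are lowest for Cck in cortex (4.60 to 7.62 CPM) and highest for Npy in cerebellum (2.24 to 3.07 CPM).

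The genes whose log2 CPM followed a member most closely over the 51 WT libraries differed between members. The libraries of one age and region share their place in the design, so these correlations mostly describe the 9 group means. Vip was most like Acsl5 (r = 0.980), Cck like Slc7a4 (r = 0.977) and then Camk2a (r = 0.965), Sst like Tmem179 (r = 0.969) and Npy like Slc8a1 (r = 0.940). Pvalb was most like Pyurf (r = 0.968), Calb1 like Cadps2 (r = 0.979), Calb2 like Dnah11 (r = 0.920) and Reln like Mtss1 (r = 0.951). Among the members Lhx6 and Dlx1 went together (r = 0.981), as did Pvalb and Calb1 (r = 0.935), while Vip and Reln went opposite ways (r = -0.820). With each group's mean subtracted, the pairs that varied together were Npy and Cck (r = 0.755), Calb1 and Cck (r = 0.645) and Sst and Cck (r = 0.601), whereas Lhx6 and Dlx1 had an r of 0.230 and Pvalb and Calb1 of 0.0278. The name prefix was not subtracted, and the regions of a mouse counted as separate libraries. In E17.5 WT cortex and hippocampus the means of Npy, Cck, Calb1 and Sst were all lowest in the S3 mice. In cerebellum those of Cck and Calb1 were lowest in S3 and those of Npy and Sst highest. The part of the prefix in these correlations was not tested.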

How the data were processed

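Total RNA of the 3 brain regions was sequenced from both genotypes as rRNA-depleted, stranded paired-end libraries. The authors trimmed reads with Cutadapt 1.14, aligned them to GRCm38 with STAR 2.5.3a and estimated gene counts with RSEM 1.3, and the deposited table holds these expected counts, not normalized, for 53465 genes in 108 libraries. The strand setting of RSEM is not given in the sources used here. Of the values 5.76% were not whole, and all were rounded. Depth was 15126114 to 44411282 counts per library, and no pair of replicates agreed within sampling noise.

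The 2 mice (6 libraries) whose genotype is given both ways were left out. Genes were filtered with filterByExpr (minimum count 10, minimum total 15), scaled by TMM and tested in edgeR 4.0.16 (R 4.3.3) by the quasi-likelihood F test, with Benjamini-Hochberg adjustment over all genes tested and a threshold of 0.1. SEs were derived from the log2 fold change and F. Genotype was tested within each age and region, age within WT of each region, and region within WT of each age with the mouse as a block. Ratios for groups with few counts were taken from summed counts with exact intervals. Marker scores are means of log2 CPM with a prior count of 2. The scripts were tested on simulated data. The study itself used RUVs before edgeR, which was an alternative here, beside DESeq2 1.42.0, RLE scaling, no filter, each library left out, the replicate number as a block and all 108 libraries. The name prefixes, fits without the S3 mice and the fit without mice P35_17 and P35_26 were chosen after seeing the data.

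The rule named all 10 members in every comparison, and a genotype difference singly where its unadjusted p was under 0.05. Changes with age are given for each member with enough counts, and differences between regions by counts, with values for some members chosen after they were seen. Of other lists the gene with the largest rise and the one with the largest fall among those called were named, and of genes most like a member those with the highest Pearson r. For Lhx6 and Dlx1 that result is not reported here. The members and lists were chosen with earlier results of these data known. In the 9 comparisons of genotype it was checked whether mice with the same replicate number deviated together (every pair's correlation over 0.1). They did in E17.5 cortex only, at 0.113 to 0.759. The main fit there held no block for the replicate number, which entered only as an alternative. At E17.5 mice with the same number also shared a name prefix, so these correlations cannot tell pairs from prefixes. Promoters are from RefSeq (GRCm38.p6), and gene positions from GENCODE M21.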

Additional observations from a re-analysis of the deposited data

Results flagged for a closer look

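Among groups of 4 to 10 libraries, 1 library lay far from the others of its group in 8 of 160 groups of a member, and chance gives about 1 in 20. These were Cck in E17.5 hippocampus WT replicate 5 (52.1 CPM), Reln in E17.5 hippocampus WT replicate 4 (784 CPM) and Dlx1 in E17.5 hippocampus WT replicate 6 (80.1 CPM), where the GABA genes of replicate 6 had a mean log2 CPM of 5.69, the highest of its group. At P7 they were Pvalb in cortex WT replicate 2 (0.510 CPM), which also had the highest striatum score of its group (4.30), Pvalb in hippocampus WT replicate 3 (0.753 CPM), Dlx1 in cortex WT replicate 1 (54.4 CPM) and Dlx1 in hippocampus HET replicate 5 (30.8 CPM). At P35 it was Dlx1 in hippocampus HET replicate 6 (15.8 CPM).

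For 9 members the change with age differed between regions by the interaction test in WT. The F statistics were 231 for Sst, 32.7 for Npy, 35.8 for Vip, 65.1 for Cck, 123 for Pvalb, 16.5 for Calb1, 128 for Calb2, 224 for Reln and 25 for Lhx6, all with an adjusted p of at most 4.48e-07 in edgeR.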

How the results depend on the processing

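Of 582 alternatives of the 31 counts of members called, 579 stayed within 1.5 times the count. With RUVs (3 factors) 1 member, Calb2, was called for genotype in P35 hippocampus, with 188 genes in all. With DESeq2 2 members were called for genotype by region at P35, with 277 genes in all. Leaving out each mouse in turn moved the count between cortex and hippocampus at P35 from 8 to between 5 and 8, with 5 without mouse P35_15 and 6 without mouse P35_31. The cause was not tested. Of 2043 alternatives of 133 single fold changes none reversed, 32 lost their call and 1 gained it. Of 160 genotype alternatives, 159 had 0 members called. Apart from the fits with a library left out, these alternatives called between 0 and 200 genes in all, so the counts are no result about the members. With the replicate block the genotype counts stayed at 0 members at each age and region, the count between E17.5 and P7 in cerebellum was 7 in place of 6, and in E17.5 cortex 55 genes in place of 1 were called. Without the mouse as a block, the count between cortex and hippocampus at P35 was 6 in place of 8. The block changed no other count of members.

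With library totals in place of TMM, 14 of 90 WT means moved by more than 1 SD and with RLE scaling none did. By library totals the means were, in CPM, for Sst 32.8 in E17.5 cerebellum, 94.0 in P35 cortex and 77.0 in P35 hippocampus, for Npy 41.9 in P35 cortex and 23.4 in P35 hippocampus, for Cck 166 and for Pvalb 24.4 in P35 hippocampus, for Calb1 528 in P7 cerebellum and 119.8 in P35 cortex, for Calb2 9.24 and for Reln 106 in P35 cortex, for Lhx6 12.6 in P35 cortex and 13.4 in P35 hippocampus, and for Dlx1 11.3 in P35 cortex. Depth limited Vip and Pvalb in E17.5 cortex and hippocampus and Vip, Lhx6 and Dlx1 in cerebellum.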
